A study of Mus musculus with 5 samples.

Results

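Potassium channel genes are described here across 3 mouse gliomas and 2 normal brain samples. Members are the genes whose symbol starts with Kcn, found through the RefSeq accession that the array's files give for each probe. Of 98 such symbols in the RefSeq gene table, 97 had a probe, of 21149 named genes on the array, and 134 probes stood for them. Only Kcnmb4os2 had none. The study measured a glioma mouse model based on MADM, mosaic analysis with double markers, a Cre-dependent method that makes sparse labelled mutant cells in an otherwise unlabelled brain. Total RNA of brain tumours diagnosed as glioma was set against RNA of normal brain, all from postnatal day 150, with 1 single-colour Agilent array per sample. The labels name neither the altered genes, the Cre driver, the genotype of the normal brain samples nor the brain region. They do not say whether samples of a group were separate animals. Sex-linked genes, given below, set glioma 3 apart from gliomas 1 and 2, so the gliomas came from more than 1 animal. A p-value reflects only how far these samples spread, which may in part be technical variation.

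Potassium channels let potassium ions out of the cell down their gradient, which holds the resting potential of neurons and glia and ends action potentials. Voltage-gated (Kv) channels, encoded by Kcna to Kcnd, Kcnq and Kcnh genes, open on depolarisation. Inward rectifiers (Kcnj) and leak channels (Kcnk, also called K2P) set the resting potential, and calcium- or sodium-activated channels (Kcnma, Kcnn, Kcnt) couple potassium outflow to those ions. In the brain most of these genes are neuronal, while Kcnj10 is the main inward rectifier of astrocytes and oligodendrocyte lineage cells.

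The level of a gene is the log2 signal of its brightest probe relative to the 75th percentile of all spots on the same array, so 0 marks that percentile and levels of different probes are not compared. A probe counted as detected where the scanner software marked it well above background, which held for 65.9% to 70.3% of spots on the glioma arrays and for 64.0% and 61.5% on the normal brain arrays. Across probes, arrays correlated at 0.976 to 0.985 within glioma, at 0.996 within normal brain and at 0.896 to 0.912 between groups. Glioma 3 stood apart in sex: Xist was detected on it alone and Ddx3y and Eif2s3y on the other 4 arrays. All arrays lay on 1 slide and 1 scan, the gliomas in row 1 and the normal brain samples in row 2, so slide row and group cannot be told apart.

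Most potassium channel genes were lower in glioma, often by more than 4-fold, and few were higher. Of 85 members detected on at least 2 arrays and tested, 64 were called, 56 (65.9%) lower and 8 (9.41%) higher, at an adjusted p below 0.05 (limma, Benjamini-Hochberg over 16891 genes), where 51.4% of all genes tested were called, 27.8% lower and 23.6% higher. The median log2 change of the tested members, glioma minus normal brain, was -1.90, and -0.05 over all genes tested. At least 4-fold lower were 38 members (44.7%), compared with 9.63% of all genes. After normexp background correction with quantile scaling, called normexp-corrected here, 26 members were called at least 4-fold lower. No 4-fold share of all genes is given under this setting. Under it, 57 of 85 members and 4686 of 16891 genes were called lower, with median changes of -1.42 and -0.004. Of the 64 called changes, 28 were smaller by over 1.5 times, and such values are given with the genes. Among the 75 members detected on all 5 arrays, 48 (64.0%) were lower and 8 higher, with a median of -1.88, and over all genes so detected these shares were 28.4% and 22.7% and the median was -0.08. All glioma values lay below both normal brain values in 63 members and above them in 11, leaving 11 in which the groups overlapped. Of all genes, 38.8% lay below and 35.2% above, so 74.1% did not overlap. No member was detected on all glioma arrays and no normal brain array, as 3.31% of genes were. Kcnj6, Kcnmb1 and Kcnmb2, counted as lower, were detected on both normal brain arrays and no glioma array, as 1.25% of genes were. In bulk tissue, fewer cells of a type and less RNA per cell cannot be told apart.

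**Figure D1:**
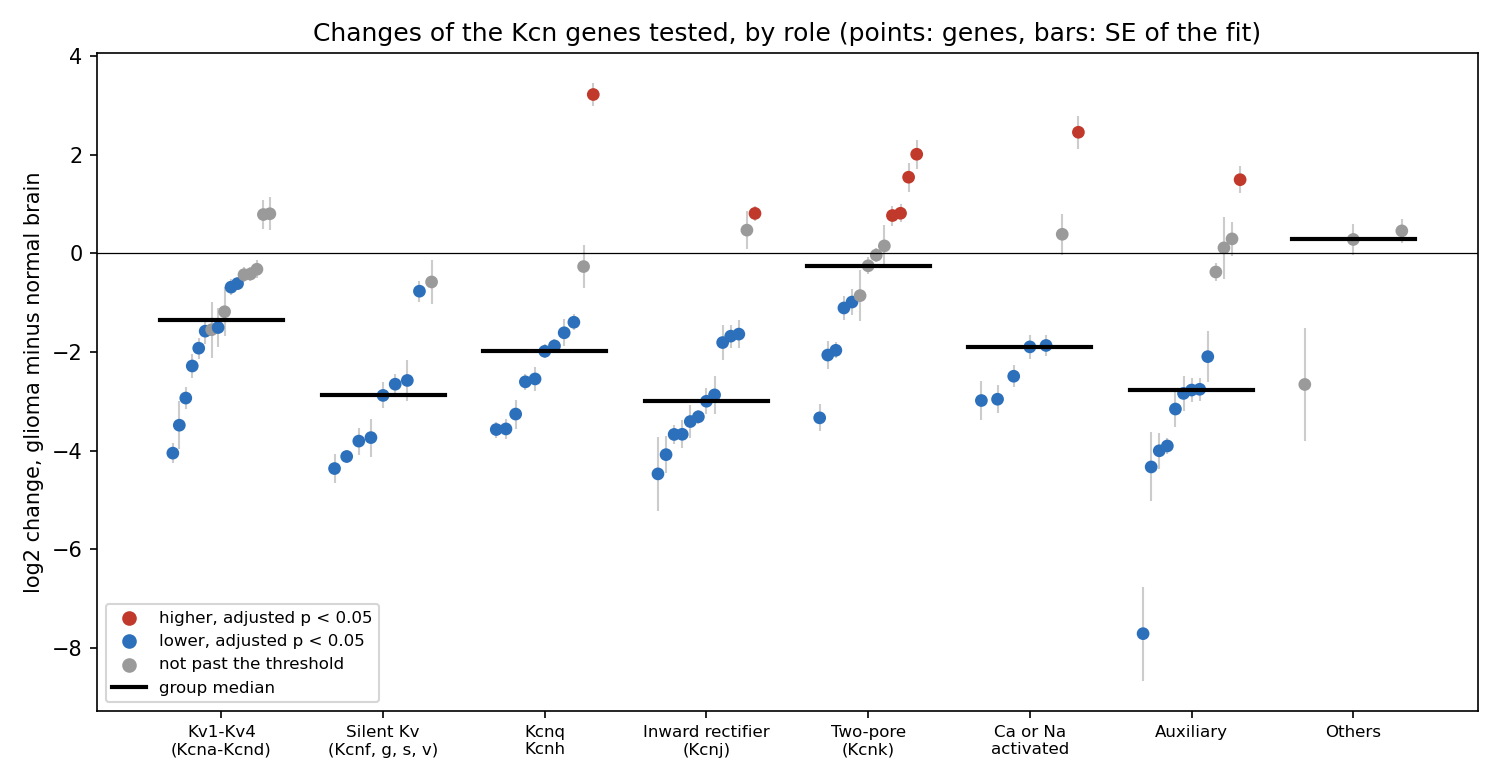
Log2 change (glioma minus normal brain, y axis) of each Kcn gene tested, by role group (x axis). Points are genes, bars the SE of the limma fit, black lines group medians, and colours show genes higher, lower or not past the adjusted p threshold. Medians run from -3.00 in the Kcnj group to 0.28 in the group of other genes, and the Kcnk genes lie on both sides of 0 with a median of -0.25.

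Neuronal marker genes moved with these falls. All 10 pan-neuronal markers tested were lower, with a median log2 change of -3.27, and their summed linear level was 54.9 to 80.9 on the glioma arrays and 534 and 533 on normal brain. Markers of GABAergic neurons were lower in 6 of 7 (summed level 22.5 to 30.7 against 201 and 222), and those of glutamatergic neurons in 7 of 7 (4.80 to 9.78 against 68.0 and 68.7). Their part in the changes of potassium channel genes was not tested. The opposite direction was found for oligodendrocyte progenitor markers, higher in 8 of 8 (summed level 388 to 450 against 46.4 and 47.1), and for markers of dividing cells, higher in 7 of 7 tested (13.9 to 24.4 against 0.283 and 0.321, with 6 and 4 of the 8 listed not detected in normal brain 1 and 2). Their part in the rises was not tested.

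The pore-forming genes of the Kv1 to Kv4 families (Kcna, Kcnb, Kcnc, Kcnd) were lower or not past the threshold. Of 16 tested, 9 were lower, 0 higher and 7 not called, with a median change of -1.34. Kcnc2 encodes a Kv3 channel of fast-spiking interneurons, and it read -1.69, -2.16 and -2.08 in gliomas 1, 2 and 3 (the order kept throughout), against 2.16 and 1.99 in the normal brain samples 1 and 2. The groups were far apart, and the change was -4.05 ± 0.20 (SE), or 16.6-fold lower (adjusted p = 0.000389). Kcnc4, another Kv3 gene, stood at -0.84, -1.42 and -0.85 in glioma and 1.99 and 1.81 in normal brain. It was 7.65-fold lower (change -2.93 ± 0.23, adjusted p = 0.000718). For Kcna1, a Kv1 channel of axons, levels were 2.28, 1.72 and 1.61 against 4.06 and 4.26. Again no glioma reached either normal brain sample, and the change was -2.28 ± 0.25 (adjusted p = 0.0016).

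Other genes of these families were also lower. Kcna2 changed by -1.58 ± 0.26 (adjusted p = 0.00595, and 0.0501 without normal brain 1). Kcnd2, which encodes the dendritic A-type channel Kv4.2, had levels of 2.67, 2.51 and 2.85 in glioma and 3.34 and 3.38 in normal brain. That made it 1.61-fold lower (change -0.68 ± 0.16, adjusted p = 0.0184), a call absent without normal brain 1 (0.122) or 2 (0.135). Kcna6 was 1.53-fold lower (adjusted p = 0.0173, and 0.106 and 0.163 without normal brain 1 and 2). Kcnc1, a Kv3 gene of fast-spiking cells, spread more among the tumours, at -0.18, -0.29 and 0.87 against 1.65 and 1.62. Its change was -1.50 ± 0.39 (adjusted p = 0.026), and the adjusted p was 0.0664, 0.0623, 0.115 and 0.109 without glioma 1, glioma 2, normal brain 1 and normal brain 2. The dimmer probes of Kcnc1 gave larger changes of -2.99 ± 0.29 and -4.33 ± 0.26, both called. Kcnb2, detected on 2 of 3 glioma arrays, changed by -3.49 ± 0.48 (adjusted p = 0.00351; normexp-corrected -1.96).

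Among the 7 not called, Kcna5 (change -1.18 ± 0.50, adjusted p = 0.102) passed without glioma 1 (0.013). Kcnd3, which encodes Kv4.3, and Kcna4, an A-type Kv1 channel, were the members of these families whose glioma values all lay above normal brain. Kcnd3 read 3.89, 4.13 and 4.82 against 3.53 and 3.45 (change 0.79 ± 0.30, adjusted p = 0.0816, and 0.0471 and 0.0419 without glioma 1 and 3). Kcna4 read 2.39, 1.34 and 1.65 against 1.05 and 0.93 (change 0.80 ± 0.33, adjusted p = 0.0991).

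The silent Kv subunits (Kcnf, Kcng, Kcns, Kcnv), which form no channel alone and modify Kv2 channels by joining them, were lower in 8 of 9 tested, with a median of -2.88. Kcns3, known from fast-spiking interneurons, stood at -3.82, -4.60 and -4.52 in glioma and -0.08 and 0.18 in normal brain. This was a 20.6-fold difference (change -4.36 ± 0.29, adjusted p = 0.000529). Kcnf1, a subunit of cortical neurons, read -3.02, -3.13 and -3.15 against 1.11 and 0.93, with the tumours close to each other. It was 17.4-fold lower (change -4.12 ± 0.14, adjusted p = 0.000328). Kcng1 (-4.19, -3.38 and -3.99 against 0.02 and -0.10) changed by -3.81 ± 0.27, and Kcns2 (-3.85, -4.50 and -5.12 against -0.75 on both arrays) by -3.74 ± 0.38, both called. Kcng4, Kcng2 and Kcnv1 were also lower, by -2.88 to -2.58. Normexp-corrected changes were smaller, at -2.96 for Kcns3, -3.44 for Kcnf1, -2.67 for Kcng1, -2.39 for Kcns2, -1.42 for Kcng4 and -1.61 for Kcng2. Kcng3 changed least among those called (-0.77 ± 0.21, adjusted p = 0.0332). That call was absent without glioma 1 (0.0622), glioma 2 (0.0781), normal brain 1 (0.217) or normal brain 2 (0.0501), and in the normexp-corrected values (0.238). Kcns1 overlapped between groups, at -0.85, -1.53 and -2.31 against -0.83 and -1.13 (adjusted p = 0.319).

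Of the 11 Kcnq and Kcnh genes tested, 9 were lower, 1 was higher and 1 was not called, with a median of -1.99. Kcnh8, which encodes a slowly activating channel of the Elk family, was the one that rose. Its level was -0.58, -0.81 and -0.15 in glioma and -3.64 and -3.84 in normal brain. The groups did not come near each other, and the change was 3.22 ± 0.24, or 9.34-fold higher (adjusted p = 0.00063). The second probe of Kcnh8 gave 2.92 ± 0.22, and the normexp-corrected change was 2.33. Another Elk gene, Kcnh3, ran the other way, at 0.96, 0.96 and 0.65 in glioma and 4.46 and 4.41 in normal brain. It was 11.9-fold lower (change -3.57 ± 0.16, adjusted p = 0.000366).

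Kcnh7, an Erg channel gene, read -5.29, -5.79 and -5.44 against -2.06 and -1.83, a change of -3.56 ± 0.20 (adjusted p = 0.000444). Kcnh1, the Eag channel gene, read -3.89, -4.82 and -4.44 against -1.14 and -1.10, a change of -3.26 ± 0.29 (adjusted p = 0.00099). Kcnq3 encodes a subunit of the M-current, which restrains repetitive firing. It stood at -2.92, -3.63 and -3.47 in glioma and -0.82 and -0.77 in normal brain, or 5.84-fold lower (change -2.55 ± 0.25, adjusted p = 0.00119). Normexp-corrected, the changes of Kcnh7, Kcnh1 and Kcnq3 were -1.84, -2.09 and -1.96. Kcnh2, Kcnh4, Kcnh5 and Kcnq5 were lower by smaller amounts, from -1.99 ± 0.14 to -1.40 ± 0.16, and the adjusted p of Kcnh5 was 0.0535 without normal brain 2. Kcnq1, best known from heart and epithelia, overlapped between groups (change -0.27 ± 0.44, adjusted p = 0.635).

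The inward rectifier genes (Kcnj) were lower in 11 of 13 tested, with a median of -3.00, and 1 was higher. That gene was Kcnj10, the glial potassium-buffering channel Kir4.1, at 5.75, 5.82 and 5.99 in glioma and 5.03 and 5.05 in normal brain. Its values were tight in both groups, and the rise was 1.75-fold (change 0.81 ± 0.14, adjusted p = 0.00777). The adjusted p was 0.0804 and 0.0768 without normal brain 1 and 2. Astrocyte markers were higher in 0 and lower in 4 of 9, with a summed level of 220 to 362 against 410 and 402. Aldoc, not called (-0.54), made up most of each sum. The 4 that fell were Gja1 (-3.15), Gjb6 (-3.10), Slc1a2 (-2.09) and Glul (-0.85). Oligodendrocyte progenitor markers were higher in 8 of 8 (388 to 450 against 46.4 and 47.1), and mature oligodendrocyte markers were lower in 6 of 9. The part of these cell types in the Kcnj10 rise was not tested. Kcnj16, whose product pairs with that of Kcnj10, read 1.20, 1.23 and 2.34 against 1.18 and 1.06, so that glioma 3 alone stood clear of normal brain (adjusted p = 0.358).

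Genes of G-protein-gated rectifiers, which hyperpolarise neurons under inhibitory transmitters, were all lower. Kcnj9 read -1.15, -1.61 and -1.17 against 2.44 and 2.28, a 12.8-fold difference (change -3.67 ± 0.20, adjusted p = 0.000403). Kcnj3 read -4.48, -4.56 and -4.38 against -1.21 and -1.11 (change -3.31 ± 0.14, adjusted p = 0.000366; normexp-corrected -2.23). Kcnj6 was detected on both normal brain arrays (-2.48 and -2.60) and on 0 of 3 glioma arrays (measured values -5.74, -6.55 and -5.57). The dimmest detected probe of each glioma array, or the measured value where higher, was put in place of the glioma values. That gave an approximate bound of 9.40-fold lower, or 2.73-fold lower when normexp-corrected. It is approximate because undetected probes can read above that dimmest one, as Kcnb2 did in glioma 3 (-5.435 against -6.42). Kcnj6 passed the filter through the normal brain arrays alone. Its adjusted p of 0.00113 (limma) came from the fit on measured glioma values not above background. Of all genes tested, 1.25% were detected on both normal brain arrays and on no glioma array. Kcnj5, detected on 2 of 3 glioma arrays, changed by -4.47 ± 0.75 (adjusted p = 0.00643; normexp-corrected -2.22), and by -5.07 and -3.79 without glioma 1 and 3.

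Other rectifiers fell with them. The strong rectifier gene Kcnj12 read -3.06, -2.80 and -4.00 against 0.85 and 0.74, or 16.9-fold lower (change -4.08 ± 0.38, adjusted p = 0.00108; normexp-corrected -3.24), and Kcnj4, of the same class, was 7.99-fold lower. Kcnj13, which encodes Kir7.1 of choroid plexus epithelium, read -2.50, -2.41 and -1.72 against 1.35 and 1.57 (change -3.67 ± 0.28, adjusted p = 0.000681). Its second probe gave -5.04. Choroid plexus markers were lower in 8 of 8 (median -5.41), with a summed level of 0.406 to 0.693 in glioma and 255 and 248 in normal brain, and 2, 0 and 1 of them were not detected in gliomas 1 to 3. Their part in the fall of Kcnj13 was not tested.

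The ATP-sensitive channel joins a Kcnj8 or Kcnj11 pore to a sulfonylurea receptor, and each pore gene neighbours a receptor gene. Kcnj11 was 7.31-fold lower (change -2.87 ± 0.39, adjusted p = 0.00314) and its neighbour Abcc8 changed by -3.49 (adjusted p = 0.000551). Kcnj8, of vascular mural cells, changed by -1.64 ± 0.28 (adjusted p = 0.00685), while its neighbour Abcc9 was not called (-0.66, adjusted p = 0.184). Mural cell and fibroblast markers were lower in 6 of 8 (summed level 5.65 to 7.04 against 22.2 and 23.3) and endothelial markers in 7 of 7 (14.0 to 15.9 against 39.2 and 40.5), and their part in the Kcnj8 change was not tested. Kcnj14 (2 of 3 glioma arrays detected) and Kcnj2 (1 of 3) were lower by -1.81 ± 0.35 and -1.68 ± 0.23. Normexp-corrected changes were -2.04 for Kcnj11, -0.78 for Kcnj8, -0.75 for Kcnj14 and -0.37 for Kcnj2. The adjusted p of Kcnj14 was 0.0103, and 0.0501 and 0.0679 without normal brain 1 and 2.

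The leak channel genes (Kcnk) were the group with the most rises, 4 higher (30.8%) and 5 lower (38.5%) of 13 tested, and a median of -0.25. Over all genes tested, 23.6% were higher and 27.8% lower, with a median of -0.05, so this group lay nearer to all genes. Kcnk10, which encodes TREK-2, a channel opened by stretch and fatty acids, stood at 2.01, 2.00 and 2.82 in glioma and 0.29 and 0.25 in normal brain. All tumours lay well above both controls, and it was 4.03-fold higher (change 2.01 ± 0.30, adjusted p = 0.00435). Kcnk2, the related TREK-1 gene, read -1.03, -1.03 and -0.63 against -1.69 and -1.73, a smaller rise of 1.76-fold (adjusted p = 0.0167). Kcnk6 read 0.53, 1.41 and 0.93 against -0.47 and -0.70, or 2.92-fold higher (change 1.55 ± 0.29, adjusted p = 0.00936). Kcnk13, known from microglia, read 1.12, 1.33 and 1.68 against 0.63 and 0.59, or 1.70-fold higher (change 0.77 ± 0.20, adjusted p = 0.028). Microglia and macrophage markers were higher in 4 of 8 and lower in 0, with summed levels of 80.5, 140 and 51.2 in gliomas 1 to 3 and 46.2 and 48.8 in normal brain, and highest in glioma 2, where Kcnk6 was highest and Kcnk13 was not. Their part in these rises was not tested. Without normal brain 1 and 2, the adjusted p was 0.105 and 0.114 for Kcnk2 and 0.137 and 0.151 for Kcnk13, which was also at 0.0592 without glioma 2. Kcnk6 was at 0.0676 without normal brain 2.

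Among the leak channels that fell, Kcnk3, the acid-sensitive TASK-1 gene, read -1.89, -2.56 and -2.68 against 1.01 and 0.90. It was 10.1-fold lower (change -3.34 ± 0.27, adjusted p = 0.000786). Kcnk12, a silent K2P subunit, read -1.38, -1.76 and -2.26 against 0.29 and 0.23 (4.18-fold lower, adjusted p = 0.00338). Kcnk4, the TRAAK gene and the third mechanosensitive relative of Kcnk2 and Kcnk10, went the opposite way to both, at -1.23, -1.60 and -1.40 against 0.59 and 0.52 (change -1.97 ± 0.16, adjusted p = 0.00082). Kcnk9, the TASK-3 gene, read -3.75, -4.43 and -4.18 against -2.95 and -3.08 (change -1.11 ± 0.24, adjusted p = 0.0143; normexp-corrected -0.49). Kcnk1, the TWIK-1 gene, read 1.62, 1.15 and 1.94 against 2.57 and 2.54 (change -0.99 ± 0.26, adjusted p = 0.0274). Their glioma values all lay below normal brain, but without normal brain 1 and 2 the adjusted p was 0.0968 and 0.0737 for Kcnk9 and 0.133 and 0.124 for Kcnk1, and it was 0.058 for Kcnk1 without glioma 1. Kcnk5, Kcnk7, Kcnk15 and Kcnk16 were not called.

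**Figure D2:**
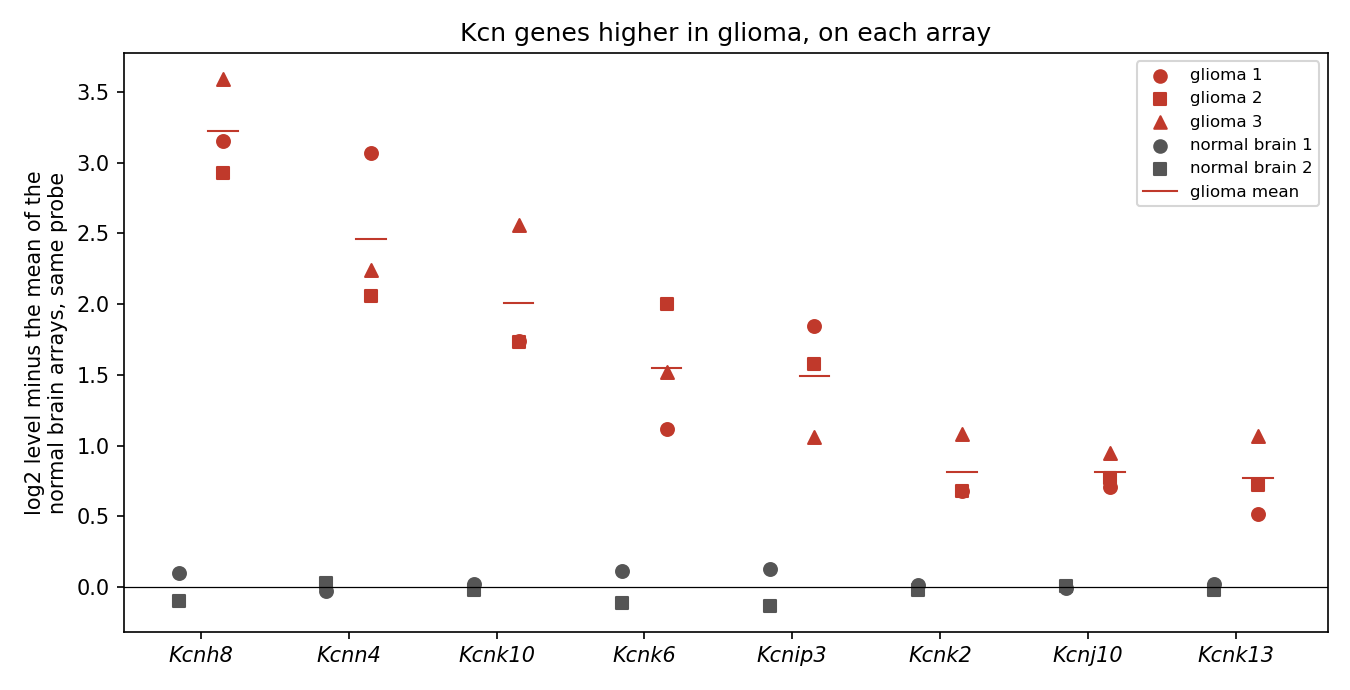
Level of the 8 Kcn genes higher in glioma on each array (y axis: log2 level minus the mean of the normal brain arrays for the same probe; x axis: gene). Red symbols are the glioma arrays with their mean as a line, grey symbols the normal brain arrays. Every glioma value lies above both normal brain values in these genes, from a mean of 3.22 for Kcnh8 to 0.77 for Kcnk13.

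Of the 7 calcium- and sodium-activated channel genes tested, 5 were lower and 1 higher, with a median of -1.90. Kcnn4 encodes the intermediate-conductance calcium-activated channel KCa3.1, known from lymphocytes and microglia and studied in glioma cells. Its level was -1.53, -2.54 and -2.36 in glioma and -4.62 and -4.57 in normal brain. It was 5.49-fold higher (change 2.46 ± 0.33, adjusted p = 0.00321; normexp-corrected 1.29), highest in glioma 1, whereas the summed microglia and macrophage markers were highest in glioma 2, and their part in the rise was not tested. The small-conductance genes of the same family went down. Kcnn2 read 0.04, 0.59 and -0.08 against 2.10 and 2.05 (change -1.90 ± 0.24, adjusted p = 0.00262), and Kcnn3 changed by -1.87 ± 0.21 (normexp-corrected -1.25).

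Kcnma1, the pore of the large-conductance BK channel, read 1.74, 1.02 and 1.82 in glioma and 4.44 and 4.53 in normal brain. It was 7.77-fold lower (change -2.96 ± 0.28, adjusted p = 0.00114), and its 4 probes gave -2.96, -2.93, -2.78 and -1.14, each called. The sodium-activated Slack gene Kcnt1 read -0.45, -0.61 and 0.02 against 2.20 and 2.08 (5.63-fold lower, adjusted p = 0.00101). Kcnt2, the related Slick gene, read -4.28, -5.43 and -5.27 against -2.16 and -1.86 (7.91-fold lower, adjusted p = 0.00279; normexp-corrected -1.64). Kcnu1, a sperm channel gene, overlapped between groups (adjusted p = 0.47).

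Genes of auxiliary subunits were lower in 9 of 13 tested and higher in 1, with a median of -2.77. Kcnip3, which encodes a calcium sensor also known as DREAM or calsenilin, read 6.49, 6.22 and 5.71 in glioma and 4.78 and 4.52 in normal brain. It was 2.82-fold higher (change 1.50 ± 0.27, adjusted p = 0.00819), while its second probe gave 0.68 and was not called, and without normal brain 2 the adjusted p was 0.0638. The other Kv4-binding KChIP genes fell. Kcnip4 read 0.00, -1.17 and -0.59 against 3.51 and 3.33 (16.0-fold lower, adjusted p = 0.00097). Kcnip2 read -3.71, -3.35 and -3.69 against 0.32 and 0.33 (change -3.91 ± 0.17, adjusted p = 0.000366; normexp-corrected -2.97). The change of Kcnip1 was -2.09 ± 0.52 (adjusted p = 0.023), with adjusted p values of 0.0547, 0.0996 and 0.0979 without glioma 1, normal brain 1 and normal brain 2.

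All 3 Kv-beta genes were lower. Kcnab1 read -0.89, -0.43 and -0.23 against 2.16 and 3.12 (8.92-fold lower, adjusted p = 0.00189), and Kcnab3 read -0.70, -1.07 and -0.35 against 2.09 and 2.05 (change -2.77 ± 0.24, adjusted p = 0.000911). Kcnab2 changed by -2.76 ± 0.23 (normexp-corrected -1.42). Of the BK beta subunits, the brightest probe of Kcnmb2 was detected on both normal brain arrays (-2.43 and -2.29) and no glioma array (measured values -6.16, -8.07 and -5.85). By that probe Kcnmb2 was 11.4-fold lower, an approximate bound as for Kcnj6 (2.85-fold when normexp-corrected). Its dimmer second probe was also detected in glioma 3 and gave a smaller change of -2.24 ± 0.50. Kcnmb1, of smooth muscle, was likewise detected on both normal brain arrays only (-4.55 and -4.48, with measured values of -6.85, -7.23 and -7.99 in glioma). Its approximate bound was 2.92-fold lower (1.41-fold when normexp-corrected). Both genes passed the filter through the normal brain arrays alone. The adjusted p values of Kcnmb2 and Kcnmb1, 0.00573 and 0.00248 (limma), came from the fit on measured glioma values not above background. Kcnmb4, the main neuronal beta subunit, was not called, at 4.22, 3.87 and 4.95 against 4.05 and 4.06 (change 0.29 ± 0.34, adjusted p = 0.502).

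Kcne2 was detected in both normal brain samples, at 1.05 and 1.42, and in glioma 3 alone among the tumours, with measured values of -7.81, -6.99 and -4.64 (change -7.71 ± 0.95, adjusted p = 0.00243). With 2 of the glioma values not above background the size of the change is uncertain, and it was -4.89 when normexp-corrected and -7.05 and -8.63 without glioma 1 and 3. Kcne2 encodes a small subunit that is abundant in choroid plexus epithelium, whose markers were all lower, with the values given beside Kcnj13, and their part in this fall was not tested. Of the other Kcne genes, Kcne4 (adjusted p = 0.145) and Kcne1l, also called Kcne5 (0.893), were not called. Kcne1l ranged from -0.63 to 1.51 among the tumours.

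**Figure D3:**
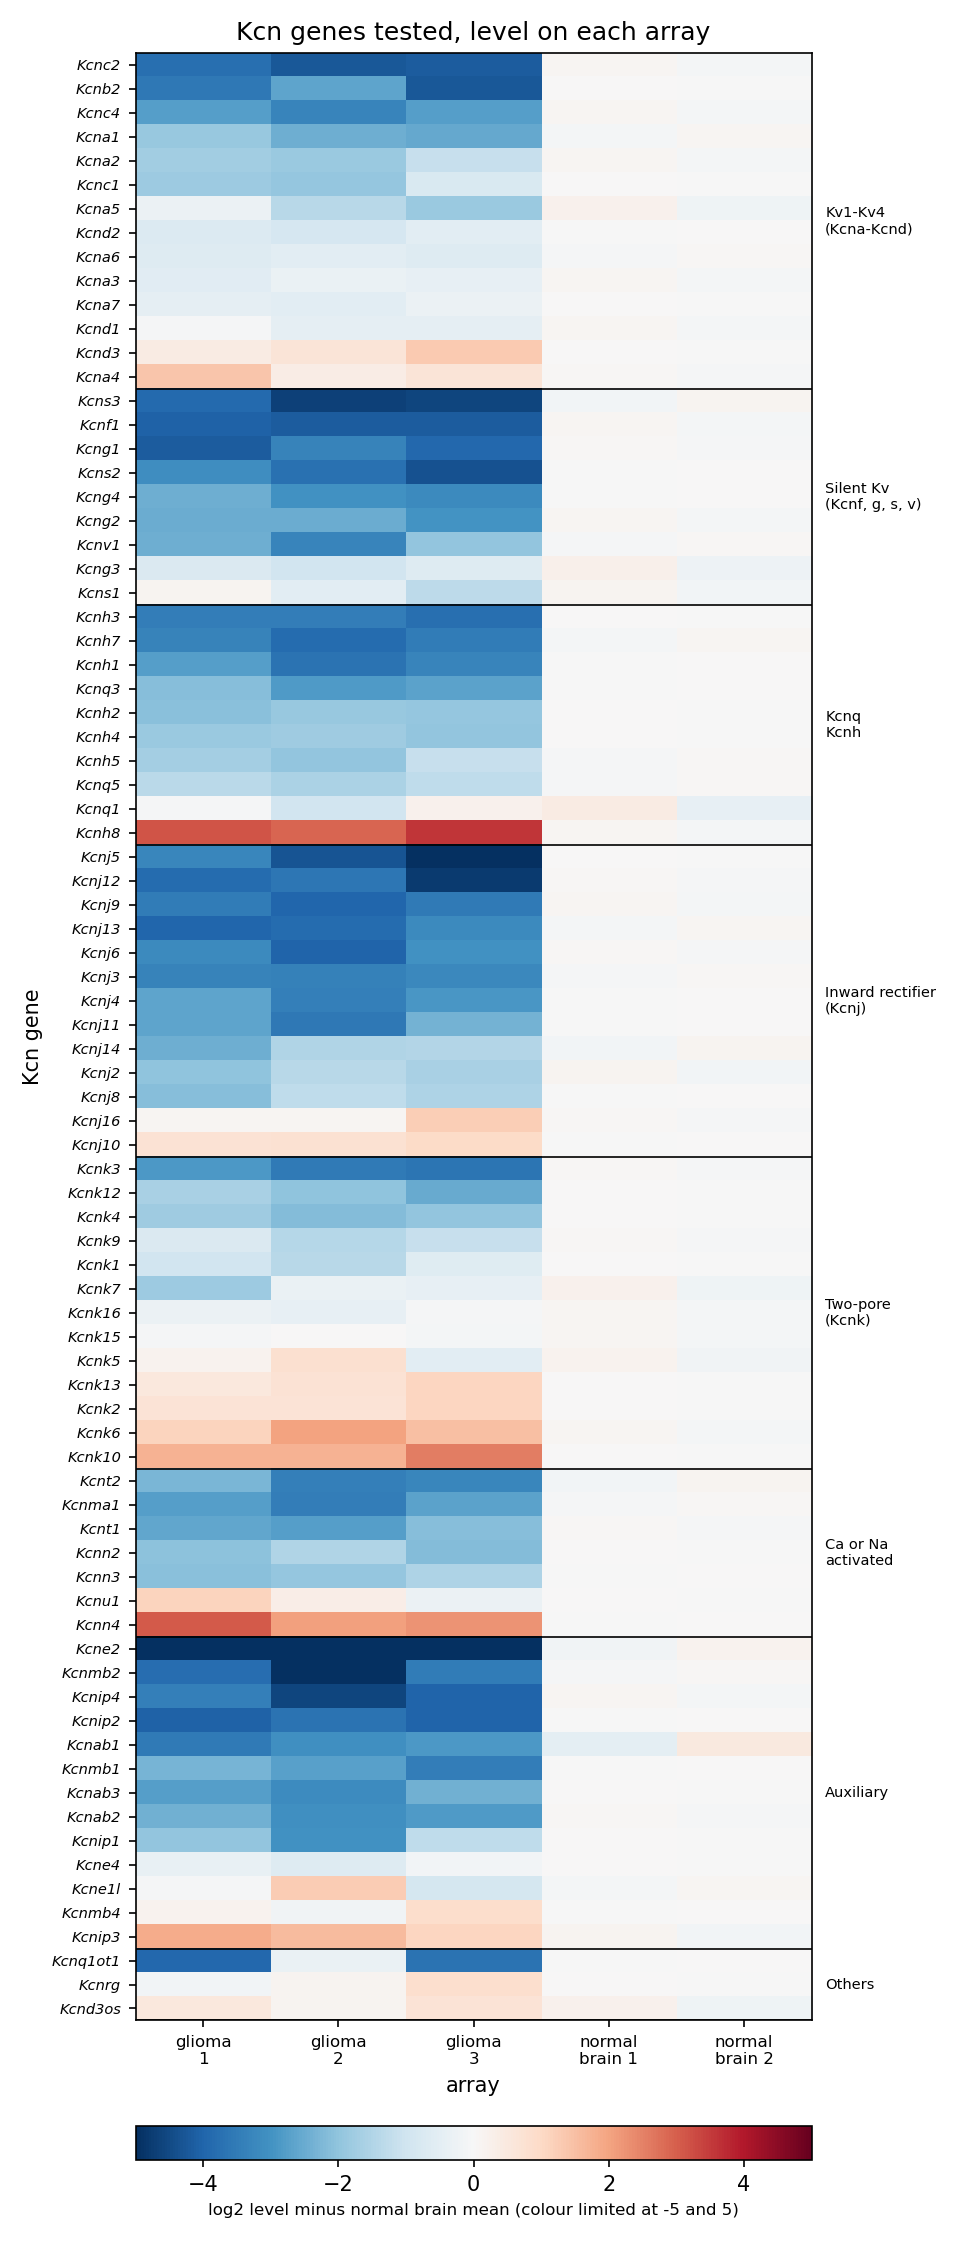
Level of the Kcn genes tested, a few left out, on each of the 5 arrays (rows: genes by role group; columns: arrays), as the log2 level minus the normal brain mean of the same probe, with the colour scale limited at -5 and 5. Falls fill most rows of the 3 glioma columns, and the 2 normal brain columns stay near 0.

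Differences among the tumours were larger than those between the normal brain samples. The median SD over tested members was 0.40 log2 units in glioma (n = 3) and 0.08 in normal brain (n = 2), against 0.26 and 0.07 over all genes tested. The glioma values spanned more than 1 log2 unit in 26 members and those of normal brain in 0, but a span over 3 arrays tends to exceed one over 2. Some of the 26, such as Kcnb2, include glioma values not above background, and no share of all genes is given for spans. The glioma values spanned more than 2 units in 5 members. Among these, Kcne1l and Kcnq1ot1 were detected in all gliomas, whereas the spans of Kcne2, Kcnj5 and Kcnmb2 include values not above background. Kcnq1ot1, a long noncoding RNA from within the Kcnq1 locus, was at 0.48 in glioma 2, near the 0.80 and 0.86 of normal brain, and at -3.11 and -2.87 in gliomas 1 and 3. It was not called with all arrays (change -2.66 ± 1.15, adjusted p = 0.11) and passed without glioma 2 (-3.82, adjusted p = 0.00194). Mature oligodendrocyte markers were lower in 6 of 9, with a summed level of 121, 345 and 71.7 in gliomas 1 to 3 and 332 and 361 in normal brain. Mag made up most of the sum in glioma 2, and without it the sums were 81.2, 131 and 62.8 against 296 and 321. Summed microglia and macrophage, ependymal, choroid plexus and dividing-cell markers were also highest in glioma 2. Those of the other cell type lists were not. The part of these cell types in the Kcnq1ot1 pattern was not tested. The regulator Kcnrg and the antisense RNA Kcnd3os were not called.

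The 12 members not tested included Kcna10, Kcne1, Kcne3, Kcnh6, Kcnj1, Kcnj15, Kcnk18, Kcnmb3, Kcnmb4os1, Kcnn1 and Kcnv2. Their brightest probe was detected on fewer than 2 arrays. For Kcnh6, a dimmer second probe was detected on both normal brain arrays (-3.71 and -4.43) and on no glioma array, while the probe chosen by brightness was detected on none.

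Several probes of 1 gene gave like answers in most cases. Of 34 members with several probes, 26 had at least 2 that were detected on 2 or more arrays. In 16 of them every such probe was called in the same direction, in 8 none was called, and in Kcna6 and Kcnip3 some were. Kcne1l alone had probes of opposite sign. Sizes could differ more than directions: the 3 probes of Kcnc1 gave -1.50, -2.99 and -4.33.

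**Figure D4:**
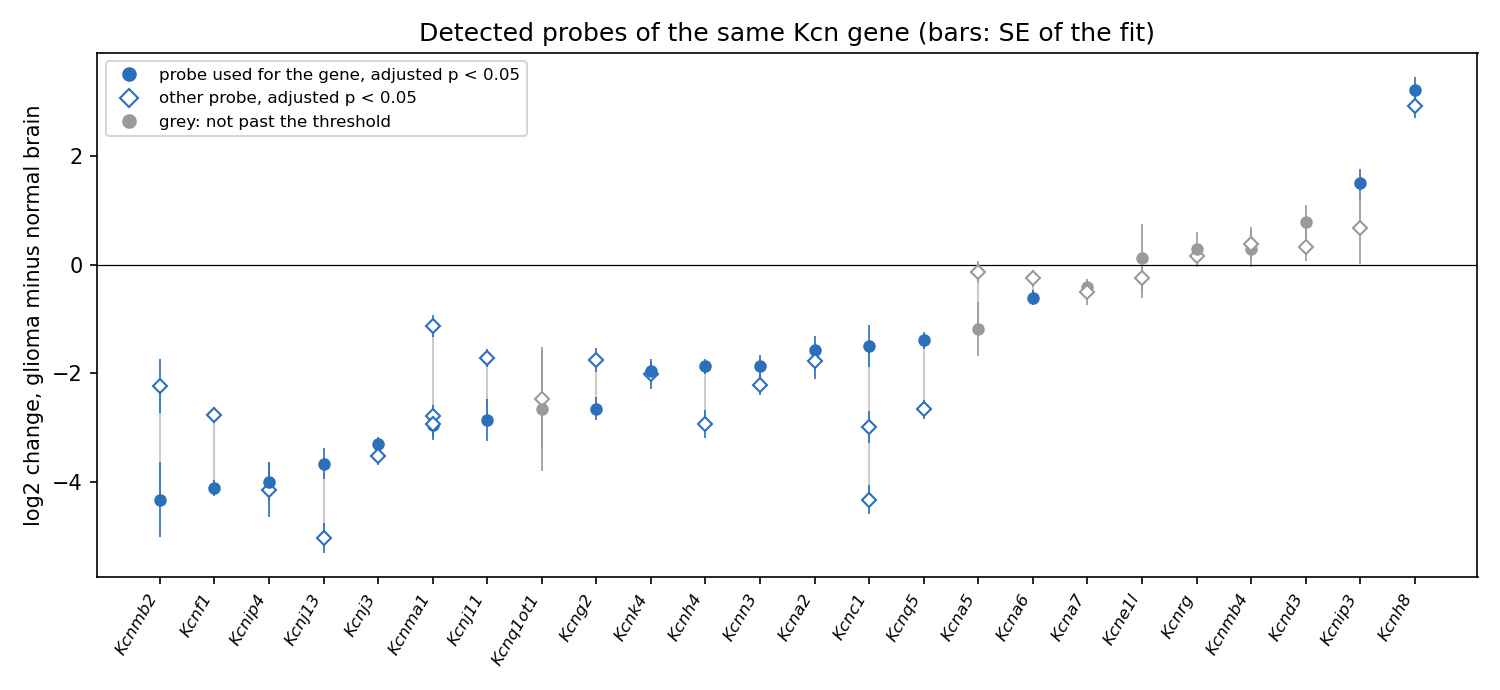
Log2 change (y axis, glioma minus normal brain, bars the SE of the fit) of each detected probe of the Kcn genes with several such probes, a few genes left out (x axis: gene). Circles are the probe used for the gene and open diamonds the others, and grey marks probes not past the threshold. Probes of 1 gene mostly share a direction, while those of Kcnc1 spread from -1.50 to -4.33.

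Neighbouring potassium channel genes did not always move together. Kcnj9 and Kcnj10 lie next to each other on chromosome 1, and the first fell by 3.67 on the log2 scale where the second rose by 0.81. On chromosome 11, Kcnj2 was lower (-1.68) and its neighbour Kcnj16 was not called (0.47). On chromosome 6, Kcna1 and Kcna6 were both lower, by -2.28 and -0.61, and Kcna5 beside them was not called. The start regions of the Kcnj9 and Kcnj10 pair, and of Kcnh8 and Kcnn4, which rose most in the values as scaled here, are shown because these genes moved in opposite directions or strongly upward. Normexp-corrected, Kcnk10 (2.02) rather than Kcnn4 (1.29) came after Kcnh8. They were chosen after their values were seen. Each is the RefSeq window (GRCm38.p6) from 250 bases before to 50 after the start, 5′ to 3′ on the gene's strand, with CG dinucleotides in capitals. The windows are chr1:172340960-172341259 (plus strand) for Kcnj10, chr1:172329273-172329572 (minus strand) for Kcnj9, chr17:52602459-52602758 (plus strand) for Kcnh8 and chr7:24370013-24370312 (plus strand) for Kcnn4.
Kcnj10: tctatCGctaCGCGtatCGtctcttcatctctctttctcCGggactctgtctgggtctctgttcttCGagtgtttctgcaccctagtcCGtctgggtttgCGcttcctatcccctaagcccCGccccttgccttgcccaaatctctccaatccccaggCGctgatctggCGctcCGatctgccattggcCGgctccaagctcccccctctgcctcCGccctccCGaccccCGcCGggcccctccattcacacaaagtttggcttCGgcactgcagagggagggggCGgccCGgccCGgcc
Kcnj9: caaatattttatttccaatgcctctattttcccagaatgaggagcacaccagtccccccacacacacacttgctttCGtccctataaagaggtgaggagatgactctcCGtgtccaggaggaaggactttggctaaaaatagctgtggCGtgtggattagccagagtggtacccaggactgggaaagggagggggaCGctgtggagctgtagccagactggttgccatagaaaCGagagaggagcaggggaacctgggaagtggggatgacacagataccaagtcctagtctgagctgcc
Kcnh8: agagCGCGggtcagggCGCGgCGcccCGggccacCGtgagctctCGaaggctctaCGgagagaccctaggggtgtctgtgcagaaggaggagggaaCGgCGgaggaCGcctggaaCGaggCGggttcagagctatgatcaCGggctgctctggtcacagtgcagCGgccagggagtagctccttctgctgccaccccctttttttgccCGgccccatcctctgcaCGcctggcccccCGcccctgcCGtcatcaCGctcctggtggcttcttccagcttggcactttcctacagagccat
Kcnn4: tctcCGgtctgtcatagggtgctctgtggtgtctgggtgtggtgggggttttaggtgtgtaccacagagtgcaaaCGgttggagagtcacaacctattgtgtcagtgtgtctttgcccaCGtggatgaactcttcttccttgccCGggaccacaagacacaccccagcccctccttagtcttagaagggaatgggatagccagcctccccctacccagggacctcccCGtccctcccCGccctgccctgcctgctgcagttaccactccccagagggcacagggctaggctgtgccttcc

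Kcnj10 and Kcnh8 each held 21 CG dinucleotides in this window, and Kcnj9 and Kcnn4 held 5 and 6, where the median over all 32851 windows was 7. A TATAAA match was found for Kcnj9 of these 4, and a GGGCGG match, the core of the GC box, for the other three. Over all members with a window (71 genes, 96 windows), the median CG count was 9, and it was 9 both for members lower in glioma (39 genes) and for those higher (7 genes). GGGCGG, searched on both strands like the others, was found in 49.1% of windows of lower members, 53.8% of higher members, 46.9% of all members and 35.7% of all windows. For TATAAA these shares were 5.66%, 0%, 5.21% and 13.6%, and for the E-box CAGCTG 20.8%, 23.1%, 25.0% and 16.3%. TTCAGCACC, the first bases of the neuron-restrictive silencer element, was in 0%, 0%, 1.04% and 0.371%. Lower and higher members thus lay on the same side of all windows for each of the first 3 motifs. GGGCGG and CG counts overlap in letters, and several windows of 1 gene share sequence.

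Genes whose products bind or accompany these channels were read from lists. Of all genes tested, 27.8% were lower and 23.6% higher. Of 11 axonal partners of Kv1 channels tested, 10 were lower (median -2.46), among them Cntnap1 (-3.87) and Cntnap2 (-3.57), adhesion proteins next to the node of Ranvier, and the postsynaptic scaffold Dlg2 (-3.21). Partners of Kv4 and Kv2 were lower in 3 of 5 (Dpp10 -2.91, Amigo1 -2.64, Dpp6 -1.82) and higher in 1 (Vapa 0.54). The pacemaker HCN genes were lower in 3 of 3 tested, and the BK gamma subunit genes in 2 of 2, with Lrrc55 at -4.31. Proteins that accompany Kir4.1 at astrocyte endfeet were split, with 2 of 5 lower, among them Dmd (-2.29), Dag1 higher (1.02) and the water channel gene Aqp4 not called (-0.33, adjusted p = 0.526).

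Genes of potassium transport outside the channels went both ways, as did all genes tested (27.8% lower and 23.6% higher). Of 10 Na,K-ATPase genes, 4 were lower and 1 higher, with Atp1b1 at -3.05 and Atp1b2 at -0.88. The 1 that was higher was not detected on either normal brain array. Of 5 cation chloride cotransporter genes tested, 2 were lower and 2 higher. The neuronal KCC2 gene Slc12a5 changed by -3.61, while Slc12a4 (1.92) and Slc12a7 (1.20), which encode KCC1 and KCC4, rose. Modifiers of Kv7 and other Kv channels, such as calmodulin genes and the ubiquitin ligase gene Nedd4l (-2.24), were lower in 5 of 6.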

How the data were processed

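Arrays of 3 glioma and 2 normal brain samples (postnatal day 150) were read from the scanner output. Spot intensity values come from the authors' run of the scanner software Agilent Feature Extraction (version 10.7.3.1), as recorded per the submitters' processing notes. The deposited value table holds log2 values, which lay within 0.01 of the log2 of that processed signal for 99.1% of probes in glioma 2 and 99.96% to 99.97% in the other samples. Flags for other properties of a spot (well above background, outlier, control), set by the authors' scanner software per the file headers, chose the spots. The genome build behind the probe design was not used, and promoters carry their own build.

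Control spots and 23 probes with outlier flags on every spot of an array were left out, and repeated spots of a probe were averaged. Each array's 75th percentile was subtracted from its log2 signals, which were fitted with limma 3.58.1 (lmFit, eBayes; R 4.3.3, Python 3.11.15) for the brightest probe of each gene detected on at least 2 arrays, two-sided, with Benjamini-Hochberg adjustment over 16891 genes and a threshold of 0.05. The fit was tested on simulated data. Of 29787 probes with a RefSeq accession, 28019 were named through it. Signal over background and the number of arrays, 3 against 2, limit the precision. Where an alternative leaves 1 normal brain array, the lone sample is assumed to vary like the gliomas.

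Values on every array are given, per role group, for up to 4 called members with the largest fall and up to 4 with the largest rise among those detected on all arrays, for members with a bound, and for other members best known in brain. A few genes are counted in the totals but not reported here by name or in the plots that name genes. Members and gene lists were chosen with earlier results of these data known. The scanner files used here hold no mean signal column, so the normexp alternatives used the median spot signal with an offset of 50. Other alternatives changed the scaling, the filter, the probe rule, the moderation, the replicate block or left out 1 array.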

Additional observations from a re-analysis of the deposited data

How the results depend on the processing

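Of the 64 members called, 49 were called in the same direction under every one of the 15 alternatives that tested them, 15 lost the call in at least one, 7 of these only where a normal brain array was left out, and 0 reversed. Kcnj6, Kcnmb1 and Kcnmb2 were detected on fewer than 2 arrays, and so not tested, without normal brain 1 or 2. With 1 array left out, the number of Kcn genes called ranged from 47 to 67, of those higher from 3 to 9 and of those lower from 44 to 58. Over all genes these ranges were 4422 to 9434, 1958 to 4385 and 2434 to 5049, the lowest counts coming without normal brain 1 (4434 genes, 5 members higher, 44 lower) or 2 (4422, 3 and 44). The authors' unscaled value table moved the median of all genes to 0.31 and the share of calls that were higher from 46.0% to 63.7%, and among members gave 11 higher and 53 lower. The replicate block called 63 members (7 higher, 56 lower). Its changes equal those without glioma 3 by design, since no normal brain sample is numbered 3. These alternatives are therefore not separate checks of a change's size. The group labels share only numbers, and same-numbered samples correlated at 0.01 and 0.05 in their deviations. Under the block Kcna6 (adjusted p = 0.0503) and Kcnk13 (0.0551) were not called. Of the 21 members not called, 9 were called under some alternative, Kcnd3 and Kcna4 among them under the authors' table (adjusted p = 0.021 and 0.0253). The calls of Kcnip3 (0.0737) and Kcna6 (0.0521) were absent with the mean of their probes, and those of Kcna6 (0.329), Kcnd2 (0.124) and Kcng3 (0.139) under the authors' table. Kcng3 was also not called under either normexp setting (0.238 with quantile scaling, 0.058 with the 75th percentile) or with trended, robust moderation (0.0879).

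Signs turned only in members that were not called. Under the authors' table Kcnd1 read 0.035, Kcnk15 0.32, Kcnk16 0.11 and Kcnq1 0.090. With 1 array left out, Kcne1l ranged from -0.46 to 0.61 (lowest without glioma 2), Kcnk15 from -0.13 to 0.058 (highest without normal brain 1), Kcnk5 from -0.18 to 0.50 (below 0 without glioma 2 or normal brain 2) and Kcnq1 from -0.67 to 0.13 (above 0 without glioma 2 or normal brain 1). Kcnmb4 ranged from -0.0078 to 0.53 and Kcnrg from -0.0010 to 0.49, both lowest without glioma 3. The replicate block gives that same value by design. The mean of probes gave -0.071 for Kcne1l, normexp with the 75th percentile -0.088 for Kcnk5, and scaling on probes detected everywhere 0.031 for Kcnk15. The authors' table and the scaling on probes detected everywhere differ from the main setting in scaling alone. Each therefore moves all members by nearly the same amount, so members near 0 can turn sign. Kcna1, for example, went from -2.28 to -1.93 and -2.22. The cause of the other turns was not tested. Members with probes of opposite sign numbered 2 under normexp with the 75th percentile, the authors' table, no filter and the block, and 1 to 3 with an array left out. Sizes depended most on the normexp settings. With quantile scaling 28 of 64 called changes were smaller by over 1.5 times, with the 75th percentile 25, and 0 were larger. These settings also used the median spot signal and an offset of 50, which by itself shrinks changes of dim probes. The part of the background correction was therefore not separated. The bounds of Kcnj6, Kcnmb2 and Kcnmb1 fell to 2.73-fold, 2.85-fold and 1.41-fold under normexp with quantile scaling.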
